A study of Arabidopsis thaliana with 9 samples.

Results

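Silent chromosome-arm small RNA loci are nuclear genes away from the centromeres that gave small RNA counts but 0 counts in dxo1-2 RNA-seq. A count of 0 does not show that no transcript was present, since RNA-seq reads with several matches were listed apart from the genes. Of the 37184 genes in the count tables, 23333 had an identifier ending in 0 and an AGI number, the running gene number along the chromosome, outside 1 window around each centromere (for example 36000 to 44000 on chromosome 1). Of these, 3292 had 0 counts in all 3 dxo1-2 RNA-seq libraries, 1650 had a mean raw count of at least 50 over the 6 small RNA libraries, and 592 met both conditions. These 592 loci were therefore chosen by their small RNA level and their RNA-seq counts, and those values describe them and were not tested. The choice used the mean over both genotypes and not their difference, but a locus with a mean near 50 can reach it through 1 genotype, and RNA-seq came from dxo1-2 alone. By the class in the RefSeq gene table, which held all 592, there were 251 protein-coding genes, 276 pseudogenes, 63 tRNA genes and 2 long non-coding RNA genes.

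In Arabidopsis thaliana, 3 dxo1-2 and 3 wild-type (Col-0) libraries of small RNA were sequenced, and 3 dxo1-2 libraries of total RNA, depleted of ribosomal RNA, by strand-specific RNA-seq. dxo1-2 is a mutant allele of DXO1, a member of the DXO family that acts on RNA 5′ ends, and no other allele was among the libraries. All plants were 21 day old seedlings. Their seeds were stratified at 4 °C for 2 days, and they grew on soil with 16 h light and 8 h dark. RNA-seq was analysed here in dxo1-2 alone, so a locus is called silent from the mutant, and RNA-seq of Col-0 was not analysed here. The study's design text calls the replicates biological.

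In plants, silent repeats and pseudogenes are the usual source of small interfering RNA. RNA polymerase IV copies them, RDR2 makes the copy double-stranded, DCL3 cuts it, and AGO4-class proteins carry the small RNA to transcripts of RNA polymerase V, where DRM2 methylates the DNA. Small RNA sequencing also picks up fragments of tRNA, which are cut from mature or precursor tRNA. The tables give 1 count per gene with no read length or sequence, so these sources could not be told apart at a locus.

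Counts on genes ranged from 5022945 to 5698185 in dxo1-2 and from 3976221 to 4393015 in Col-0 small RNA libraries, and from 60138933 to 71210737 in RNA-seq. DXO1 itself gave 108, 76 and 113 RNA-seq counts in dxo1-2, and its small RNA level was 9.26 ± 0.744 CPM (counts per 1e+06 TMM-scaled counts) in dxo1-2 and 8.31 ± 3.27 CPM in Col-0 (mean ± SD, n = 3 each). The labels do not say which part of DXO1 is changed in dxo1-2, so its counts do not check the genotype. In the dxo1-2 RNA-seq libraries the leaf genes RBCS1A, RCA and LHCB1.1 had 3958 ± 361, 1593 ± 184 and 2330 ± 141 CPM and the root gene PYK10 had 178 ± 14.1 CPM. The other root gene looked at, CASP1, had 3, 8 and 1 counts. The flower genes AP3, PI and AG had at most 22 counts in a library, and the pollen gene VGD1 had 0.

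The 592 loci held a modest and similar share of the small RNA counts on genes in both genotypes. They took 8.90%, 8.32% and 8.59% of the gene counts in dxo1-2 and 9.92%, 9.90% and 8.45% in Col-0, so the genotypes overlapped on this measure. Reads on no gene made up 61.7% to 63.2% of all lines in dxo1-2 and 66.2% to 68.4% in Col-0. The shares given here leave those reads out and do not describe small RNA as a whole. The 63 tRNA genes took 1.78% ± 0.207 in dxo1-2 and 2.82% ± 0.152 in Col-0 (SD, n = 3 each), with no overlap between libraries. This sum includes 2 tRNA-Glu genes that share reads. Over 3 libraries AT1G09110 had 43063 counts in dxo1-2 and 89830 in Col-0, and AT1G20170 had 43058 and 89822. The same measurement thus enters the sum 2 times, and the share without it was not computed. The difference therefore does not describe the tRNA genes as a class. The pseudogenes took 4.71% ± 0.367 in dxo1-2 and 4.43% ± 0.504 in Col-0, and the protein-coding loci 2.06% ± 0.119 in dxo1-2 and 2.11% ± 0.208 in Col-0. Chromosome 1 held 245 loci, chromosome 2 held 131, and chromosomes 3, 4 and 5 held 85, 64 and 67. The tRNA loci lay on chromosome 1 (38) and chromosome 2 (25) alone, among the identifiers ending in 0 that the selection kept. Over all identifiers 193 tRNA genes averaged 50 counts or more, so this is not the distribution of tRNA genes with small RNA. AT4G37175 and AT5G27715, for example, had nearly the same counts as the tRNA-Glu locus AT1G09110. At the edge of the selection, AT3G18700 and AT4G11700 lay just inside, with a mean of 50.3 counts each, and AT2G42050 and AT2G23550 just outside, with 49.7 and 49.5.

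By mean CPM over the 6 libraries, the most abundant locus was a tRNA-Glu gene, AT1G09110, with 2221, 2402 and 2754 CPM in dxo1-2 and 8894, 8838 and 6734 CPM in Col-0. AT1G20170, another tRNA-Glu gene, differed from it by at most 5 counts in any library, so the pair shares reads and is 1 measurement. Next came the pseudogene AT4G28970 with 1648, 1512 and 1604 CPM in dxo1-2 and 1625, 1614 and 1351 CPM in Col-0, where the genotypes overlapped (adjusted p = 0.616 in edgeR's quasi-likelihood test). The protein-coding gene AT2G16030 and the pseudogenes AT4G09380 and AT2G23720 completed the 6 highest by this measure. AT4G09380 and AT2G23720 had log2 fold changes of -0.19 ± 0.09 each, with edgeR adjusted p-values of 0.0860 and 0.0766.

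**Figure D1:**
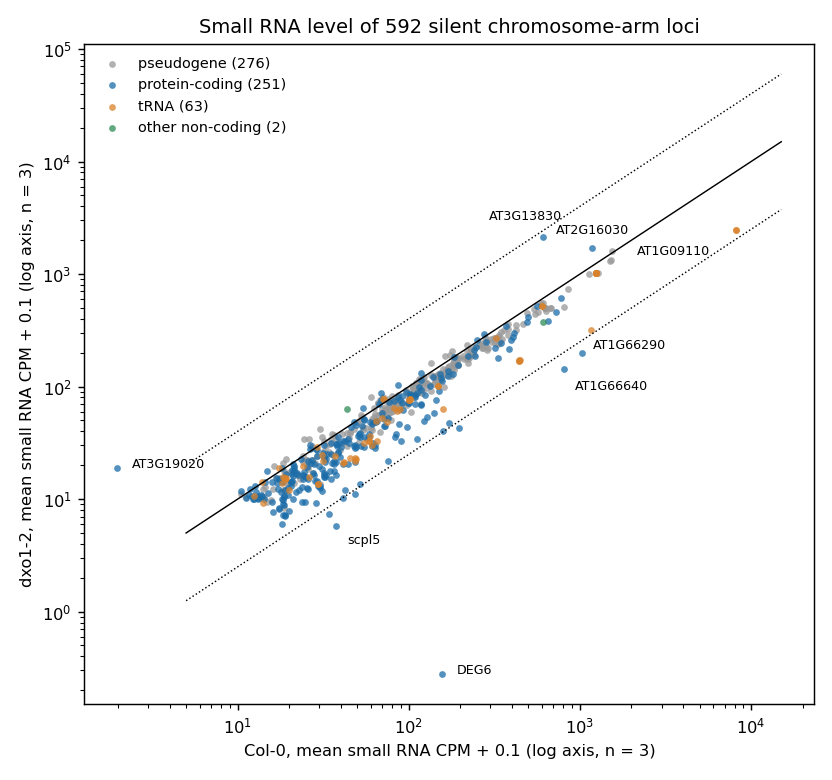
Mean small RNA level of the 592 loci in dxo1-2 (vertical axis) and Col-0 (horizontal axis), in CPM + 0.1 on log axes, n = 3 each, coloured by gene class. The solid line marks equal levels and the dotted lines a 4-fold difference; most loci lie close to the solid line and a little under it, with AT3G19020 far above and DEG6 far below.

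Small RNA at these loci was lower in dxo1-2 far more often than higher. In edgeR's quasi-likelihood test on TMM-scaled counts, at a Benjamini-Hochberg adjusted p under 0.05 over 11534 genes, 13 loci (2.2%) were higher in dxo1-2 and 328 (55.4%) were lower, while 251 did not pass. Over all genes tested 26.8% were higher and 23.0% lower, and over the 6046 genes averaging 50 counts or more 15.2% were higher and 35.8% lower. The differences were mostly small. The median log2 fold change of the 592 loci was -0.33 with quartiles of -0.61 and -0.18, against -0.019 over all genes tested and -0.16 over genes of a mean of at least 50 counts. In 69 loci the fall was at least 2-fold, and in 2 the rise was.

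How many loci passed, and in which direction, depended on the scaling between libraries, which shifted all genes together. The median log2 fold change of all genes tested was 0.32 with library totals alone, 0.55 with all lines of the tables as the library size and -0.66 where TMM factors came from small nuclear RNA genes. Of the 592 loci, 56 were then higher and 115 lower with library totals, 247 higher and 70 lower with all lines, and 2 higher and 569 lower with small nuclear RNA. The loci's median stood 0.31 below the median of all genes under each of these scalings and under TMM. A shift of all genes together leaves this gap nearly unchanged, so its steadiness is no test of it. The loci's median minus that of all genes was -0.16 in a fit to genes averaging 50 counts or more and -0.58 with no count filter. Since the calls depended on the scaling, the falls and rises described here are relative to TMM scaling. Those that passed in the same direction under TMM and the 6 other scalings or tools tried numbered 2 higher and 70 lower, a count chosen after the values were seen. They made up 0.338% and 11.8% of the 592 loci, against 16.2% and 4.35% of all genes tested and 7.06% and 5.59% of the genes averaging 50 counts or more. Each of the 72 also passed with any 1 of the 6 libraries left out. The 70 equal the lower count with all lines alone, and the 2 the higher count with small nuclear RNA alone. Passing under all 7 thus comes down to the strictest scaling in each direction and is not 7 separate checks.

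**Figure D2:**
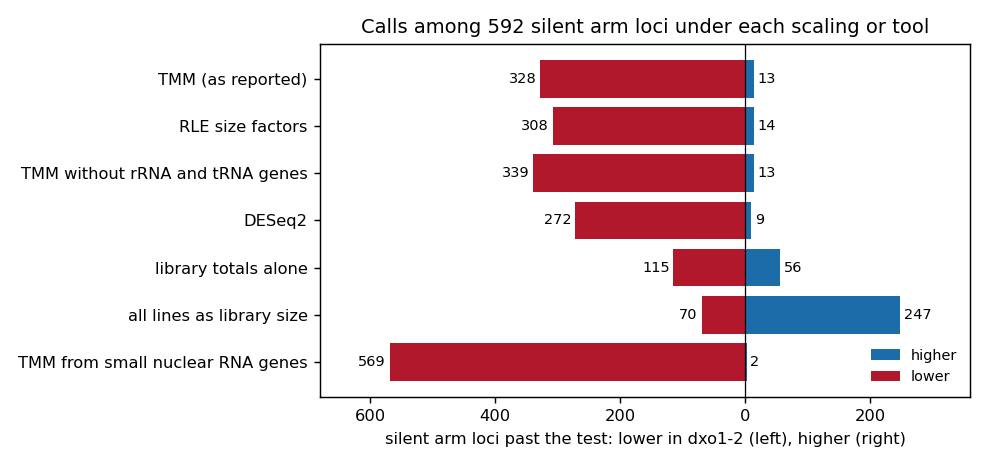
Number of the 592 loci lower (left) and higher (right) in dxo1-2 at an adjusted p under 0.05 under TMM, 4 other scalings of edgeR, TMM without rRNA and tRNA genes, and DESeq2. The counts of lower loci run between 70 and 569 and those of higher loci between 2 and 247.

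The loci were compared with the sets nearest to them by the same counts and medians, with no test of the sets. Silent loci inside the centromere windows with the same small RNA minimum numbered 1242, of which 9.42% were higher and 26.5% lower, with a median log2 fold change of -0.10. They held 1056 pseudogenes and 180 protein-coding loci, against 276 and 251 of the 592, so class differed along with position. Of their protein-coding loci 37.8% were lower (median -0.23), against 65.3% (-0.49) in the arms. Of their pseudogenes 24.4% were lower (-0.087), against 48.2% (-0.24). Whether position goes with the fall was not tested. Silent loci with identifiers not ending in 0 numbered 2129, with 11% higher, 33.4% lower and a median of -0.15. Chromosome-arm loci with RNA-seq counts numbered 1058, with 39.6% higher and 36.8% lower. A rise of at least 4-fold with no overlap between genotypes was seen in 1 of the 592 silent arm loci and in 284 of these transcribed loci. Calls that held under all 7 scalings or tools fell on 0.0805% (higher) and 1.45% (lower) of the pericentromeric loci and on 34.4% (higher) and 7.84% (lower) of the transcribed arm loci. Among the silent arm loci, the 192 that lay within 2000 AGI numbers of a centromere window had 5 higher and 96 lower, and the 400 farther out had 8 higher and 232 lower.

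**Figure D3:**
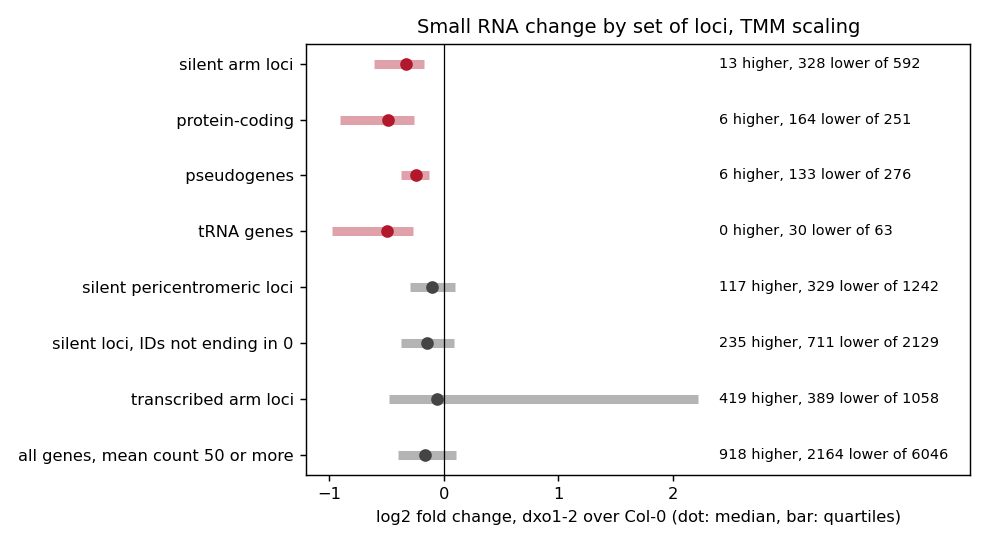
Median (dot) and quartiles (bar) of the log2 fold change of small RNA, dxo1-2 over Col-0 with TMM scaling, for the 592 silent arm loci, their classes and 4 other sets of genes. The medians of the silent arm loci and their classes lie between -0.50 and -0.24, and the quartiles of the transcribed arm loci reach 2.22.

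Under TMM the median fall was deeper in protein-coding and tRNA loci than in pseudogenes. Of 251 protein-coding loci 6 were higher and 164 lower, with a median log2 fold change of -0.49. Of 276 pseudogenes 6 were higher and 133 lower, with a median of -0.24. Of 63 tRNA genes 0 were higher and 30 lower, with a median of -0.50. In these classes 65.3%, 48.2% and 47.6% were thus lower. Over all genes averaging 50 counts or more, 41.7% of protein-coding genes, 31.4% of pseudogenes and 51.3% of tRNA genes were lower, and 25.7%, 10.2% and 0% higher. The tRNA loci were thus near the share of their class. Of 135 transcribed arm pseudogenes 61.5% were lower, with a median of -0.31, so the fall was not particular to silent pseudogenes. The protein-coding median minus the pseudogene median was -0.25 under TMM and lay between -0.25 and -0.24 under the 6 other scalings or tools. Scaling shifts both classes nearly alike, so these 6 could hardly move the difference and do not test it. With 1 library left out the difference lay between -0.30 and -0.23. The tRNA median moved more, between -0.64 and -0.32 with 1 library left out, and without Col-0 replicate 3 it was -0.32 against -0.33 in pseudogenes. Calls that held under all 7 scalings or tools came to 50 of the protein-coding loci, 18 of the tRNA genes and 2 of the pseudogenes (AT1G34240 and AT1G60150) among the lower, and to 2 protein-coding loci among the higher. Of 125 loci averaging 50 to 100 counts 48.8% were lower, and of 103 averaging 1000 or more 55.3%. Of the 592, 564 had a mean of at least 50 counts in both genotypes (12 higher, 316 lower). A further 16 reached it in dxo1-2 alone (1 higher, 0 lower) and 12 in Col-0 alone (0 higher, 12 lower), and the direction of these 28 is partly set by the selection.

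A gained locus is taken here as one higher in dxo1-2 by at least 4-fold with no overlap between the 3 libraries of each genotype, and a lost locus as the reverse. Under TMM 1 of the 592 loci was gained, against 13.0% of all genes tested and 5.28% of genes averaging 50 counts or more, and 8 were lost, against 0.858% and 0.711%. The 4-fold limit depends on the scaling, with 2 gained and 4 lost under library totals, 2 gained and 2 lost under all lines, and 1 gained and 25 lost under small nuclear RNA scaling. RLE, DESeq2 and TMM without rRNA and tRNA genes gave the same 9 loci as TMM. All 9 are annotated as protein-coding. Without the size criterion, the genotypes did not overlap at 343 of the 592 loci, against 58.1% of all genes tested.

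The gained locus was AT3G19020, for which RefSeq gives no symbol. It had 100, 111 and 117 counts in dxo1-2 and 3, 12 and 6 in Col-0, or 15.5, 20.5 and 20.5 CPM in dxo1-2 and 0.843, 3.19 and 1.62 CPM in Col-0. All dxo1-2 libraries lay above all Col-0 libraries, with a log2 fold change of 3.29 ± 0.33 (± is an approximate SE) and an edgeR adjusted p of 7.51e-06. It reached the mean of 50 counts through dxo1-2 alone, so its direction is partly set by the selection, which the p-value does not allow for. Its transcribed neighbours AT3G19010 and AT3G19030 were higher too, with log2 fold changes of 1.62 and 1.92, from 14 to 64 counts a library in dxo1-2 and 1 to 12 in Col-0. Over all protein-coding genes tested 40.5% were higher, with an upper quartile of 1.82, so these neighbours do not set the place apart. AT3G19010 did not pass with small nuclear RNA scaling or without dxo1-2 replicate 1, dxo1-2 replicate 2 or Col-0 replicate 1.

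The next largest rise was at AT3G13830, a protein-coding gene with no symbol and one of the more abundant loci. It had 1813, 2213 and 2435 CPM in dxo1-2 and 622, 785 and 413 CPM in Col-0, again with no overlap. The log2 fold change was 1.83 ± 0.18 (edgeR adjusted p = 7.14e-06), a 3.55-fold rise, under the 4-fold limit. It passed the limit with library totals, with all lines and without Col-0 replicate 2. The next genes had few small RNA counts. AT3G13820 had at most 2 counts in a dxo1-2 library and at most 6 in a Col-0 library, and the pseudogene AT3G13825 was lower in dxo1-2, with a log2 fold change of -1.33 that did not pass with library totals, all lines or DESeq2, or without dxo1-2 replicate 1, dxo1-2 replicate 3 or Col-0 replicate 1. AT3G19020 and AT3G13830 were the 2 loci higher under all 7 scalings or tools.

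The other 11 higher loci rose by less. AT2G16030, which overlaps another gene, had 1628, 1752 and 1706 CPM in dxo1-2 and 1114, 1214 and 1196 CPM in Col-0, a log2 fold change of 0.53 ± 0.07 (edgeR adjusted p = 7.61e-05). The long non-coding RNA gene AT5G00730 (0.54), the pseudogenes AT1G44870 (0.48), AT2G03920 (0.41), AT2G25030 (0.39), AT4G19310 (0.28) and AT5G37110 (0.21) and the protein-coding genes AT3G54580 (0.36) and AT2G02840 (0.27) were also past the threshold, with log2 fold changes as given. The remaining 2 were EXT11 (AT5G49080), an extensin gene annotated as a pseudogene, and HRGP1 (AT3G54590), a hydroxyproline-rich cell wall protein gene next to AT3G54580. All 11 had negative log2 fold changes once TMM factors came from small nuclear RNA genes. With 1 library left out, AT2G16030, AT5G00730, EXT11 and AT2G03920 passed in all 6 fits. AT1G44870 failed without Col-0 replicate 3 and AT4G19310 without Col-0 replicate 2, while AT3G54580, AT2G25030 and AT2G02840 passed in 2 of the 6 fits, AT5G37110 in 1 and HRGP1 in 0.

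The deepest loss was at DEG6 (AT1G51150), a gene of the Deg family of serine proteases. It had 0, 1 and 2 counts in dxo1-2 and 426, 673 and 633 in Col-0. The ratio of depth-scaled counts, Col-0 over dxo1-2, was 921, with an exact 95% interval of 314 to 4468 that covers counting error only, and the edgeR adjusted p was 4.81e-10. The adjoining genes FBH3 and AT1G51160, both transcribed, had at most 10 small RNA counts in any library and were not tested. The next gene, UCN, was higher in dxo1-2, with a log2 fold change of 2.14 (edgeR adjusted p = 5.23e-04), as were 40.5% of all protein-coding genes tested. DEG6 was the 1 locus with 3 counts or fewer in a genotype.

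AT1G66640 and AT1G66290, protein-coding genes with no symbol, lost most of a high level of small RNA. AT1G66640 had 150.5, 152.1 and 128.8 CPM in dxo1-2 and 866, 835 and 715 CPM in Col-0, a log2 fold change of -2.49 ± 0.09 (edgeR adjusted p = 1.37e-09). AT1G66290 had 222, 197 and 182 CPM in dxo1-2 and 1134, 1010 and 951 CPM in Col-0, a log2 fold change of -2.36 ± 0.09 (edgeR adjusted p = 1.62e-09). In both, every dxo1-2 library lay more than 4-fold below every Col-0 library. AT1G66310, from the same stretch, had 6.19, 7.76 and 7.88 CPM in dxo1-2 and 46.9, 27.4 and 27.8 CPM in Col-0.

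Between AT1G66200 and AT1G66700 the tables hold 56 genes, of which 4 were silent arm loci (AT1G66290, AT1G66310, AT1G66490 and AT1G66640). All 4 were lower in dxo1-2, the smallest fall being that of AT1G66490, with a log2 fold change of -1.06 ± 0.17. Of the 14 other genes tested in this stretch, 3 were lower and 4 higher, beside 23.0% lower and 26.8% higher over all genes tested. The lower ones were AT1G66235, the sucrose transporter gene SUC7 and AT1G66300, which lies between AT1G66290 and AT1G66310. AT1G66300 had 3 RNA-seq counts in all and so missed the selection, and its log2 fold change was -2.10. The stretch was picked out after its values were seen.

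The other 4 lost loci had lower levels. AT5G47300 had 46.8, 39.2 and 43.4 CPM in dxo1-2 and 225, 199 and 163 CPM in Col-0, a log2 fold change of -2.18 ± 0.12. AT1G62270 had 11.8, 9.98 and 11.6 CPM in dxo1-2 and 53.7, 51.9 and 40.2 CPM in Col-0 (-2.12 ± 0.15), and AT5G07430 had 9.60, 10.7 and 9.81 CPM in dxo1-2 and 58.5, 42.0 and 23.5 CPM in Col-0 (-2.04 ± 0.27). The last was scpl5 (AT1G73290), a serine carboxypeptidase-like gene, with 4.96, 6.28 and 5.61 CPM in dxo1-2 and 70.6, 18.6 and 23.7 CPM in Col-0. Its log2 fold change was -2.74 ± 0.44 and, without Col-0 replicate 1, -1.94. Without that library AT5G07430 (-1.74) and AT1G66310 (-1.95) were also under 4-fold, so 5 of the 8 lost loci kept that size. Library totals kept AT1G66290, AT1G66640, DEG6 and scpl5 over 4-fold, and all lines kept DEG6 and scpl5. The calls themselves, without the size, held under all 7 scalings or tools for all 8. DEG6, scpl5 and AT1G66310 reached the mean of 50 counts through Col-0 alone, so their direction is partly set by the selection.

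**Figure D4:**
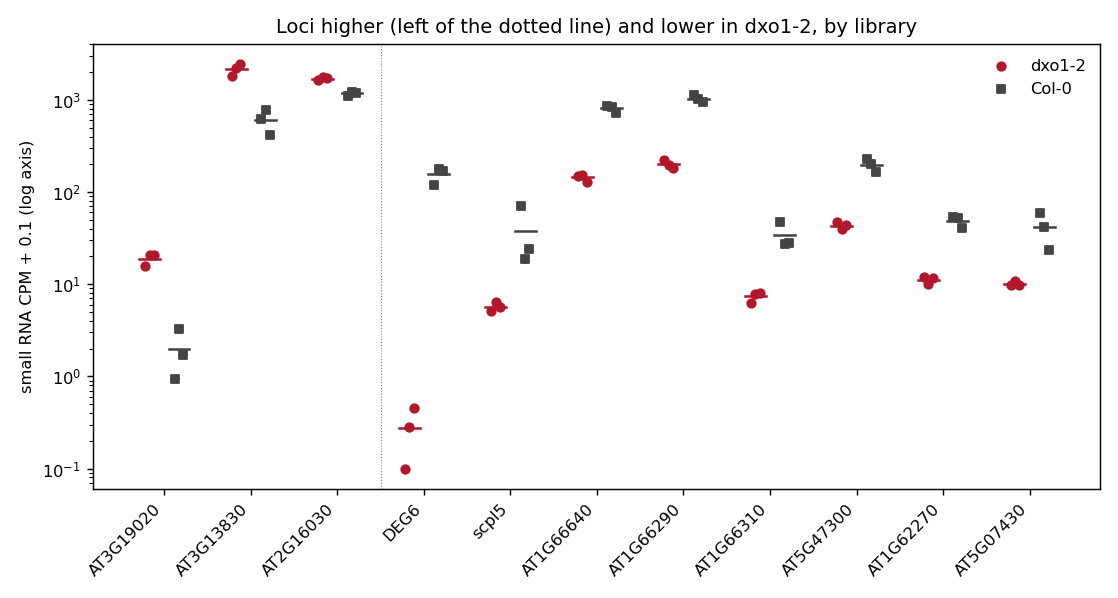
Small RNA level by library, in CPM + 0.1 on a log axis, of 3 loci higher in dxo1-2 (left of the dotted line) and the 8 lost loci (right); circles are dxo1-2, squares Col-0, and short lines the means of 3 libraries. The genotypes do not overlap at any of the 11 loci, and the DEG6 levels in dxo1-2 sit at the bottom of the axis.

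Among protein-coding silent loci, 49 have a symbol in RefSeq, and of these 1 was higher and 36 lower, beside 65.3% lower among all 251 protein-coding loci. Several gene families were represented, and were grouped by symbol after the values were seen, so the counts of these small groups are a description. The response regulator genes RR13, RR19 and RR21, of the type that acts as transcription factors in cytokinin signalling, were all lower. RR21 had 35.3, 32.1 and 34.0 CPM in dxo1-2 and 125, 115 and 93.0 CPM in Col-0, a log2 fold change of -1.71 ± 0.12. RR13 fell by 1.45 and RR19 by 0.93 on the log2 scale, and none of the 3 overlapped between genotypes. The purple acid phosphatase genes PAP5, PAP11 and PAP19, members of a family of metal-containing phosphatases, had log2 fold changes of -1.23, -1.26 and -1.27. Both families were lower in every member under all 7 scalings or tools.

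Other families moved less. The auxin response factor genes ARF13, ARF14, ARF15, ARF21 and ARF22, from a group of such genes on chromosome 1, were all lower, with log2 fold changes of -0.89, -0.52, -0.61, -0.57 and -0.52, but 0 of the 5 passed with all lines as the library size, where 3 turned positive. ARF21, for example, had 283, 266 and 279 CPM in dxo1-2 and 431, 387 and 408 CPM in Col-0. The glycosyl hydrolase family 9 genes GH9B10, GH9B11 and GH9B14, of a family of cellulose-cutting enzymes, were lower by 0.77, 0.66 and 0.91 on the log2 scale and likewise did not pass with all lines. Of 3 AGAMOUS-like MADS-box genes 2 were lower, and with all lines all 3 changed sign. Of 3 cytochrome P450 genes 2 were lower, among them CYP79A2, which makes an aldoxime from phenylalanine (-0.67 ± 0.16). With library totals 0 of the 3 were lower, and with all lines 1 was higher.

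Genes known from reproduction were found among the silent loci of these seedlings. RGE1 (ZHOUPI), a transcription factor of endosperm breakdown, had a log2 fold change of -0.90 ± 0.11, with 46.4 ± 5.45 CPM in dxo1-2 and 87.1 ± 9.33 CPM in Col-0 (SD, n = 3 each), and was lower under all 7 scalings or tools. MEE57, named for arrest of the embryo (-0.50 ± 0.17), and IND, a fruit valve margin regulator (-0.40 ± 0.12), were lower under TMM, did not pass with library totals and turned positive with all lines. Neither passed when genes averaging 50 counts or more were tested alone. MEE57 also did not pass with DESeq2, with no count filter, or without Col-0 replicate 2 or any 1 dxo1-2 library, and IND without dxo1-2 replicate 3 or Col-0 replicate 1. The 2 other genes of the group, DD11 and DD18, did not pass. NF-YC6, for a subunit of the NF-Y transcription factor, had 49.1 ± 9.58 CPM in dxo1-2 and 123 ± 29.0 CPM in Col-0 (-1.32 ± 0.16). The sucrose transporter gene SUC6 was lower by 0.62 on the log2 scale under TMM and did not pass with library totals or all lines.

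Of the 6 loci for extensins and other hydroxyproline-rich wall proteins, which cross-link the cell wall, 2 were higher, EXT11 with 34.0 ± 2.51 CPM in dxo1-2 and 24.2 ± 0.973 CPM in Col-0 (log2 fold change 0.49 ± 0.12) and HRGP1 with 64.5 ± 0.826 CPM in dxo1-2 and 53.6 ± 4.68 CPM in Col-0 (0.27 ± 0.10), and 0 were lower. The other 4 had log2 fold changes between -0.16 and 0.012. Under TMM factors from small nuclear RNA genes 0 of the 6 were higher and 4 lower. DESeq2 kept 1 of the 2 higher calls.

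The 63 tRNA genes are given by isotype, with no test between isotypes. All 8 tRNA-Glu genes were lower, with log2 fold changes between -1.89 and -1.33, but they carried only 5 distinct count profiles, since copies share reads. AT1G75970 fell furthest, with 281, 308 and 357 CPM in dxo1-2 and 1325, 1195 and 979 CPM in Col-0. The 3 tRNA-Met genes (-1.16 to -1.08), the 4 tRNA-Cys genes (-1.02 to -0.85), the 3 tRNA-His genes (-0.82 to -0.64) and the 2 tRNA-Val genes (-0.74 to -0.63) were all lower too. Of 8 tRNA-Leu genes 5 were lower, as were 3 of 7 tRNA-Gln and 2 of 3 tRNA-Thr genes. Of the 9 tRNA-Ala genes 0 passed (2 distinct profiles, -0.27 to -0.20), and neither did any of the 6 tRNA-Asn, 3 tRNA-Arg, 2 tRNA-Pro, 2 tRNA-Ser and 2 tRNA-Ile genes or the 1 tRNA-Gly gene. The 2 tRNA-Ser genes had log2 fold changes of -0.73 and -0.60, as large as those of tRNA-Val. Calls that held under all 7 scalings or tools were those of the 8 tRNA-Glu, 3 tRNA-Met and 5 tRNA-Leu genes and of 2 of the 4 tRNA-Cys genes.

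**Figure D5:**
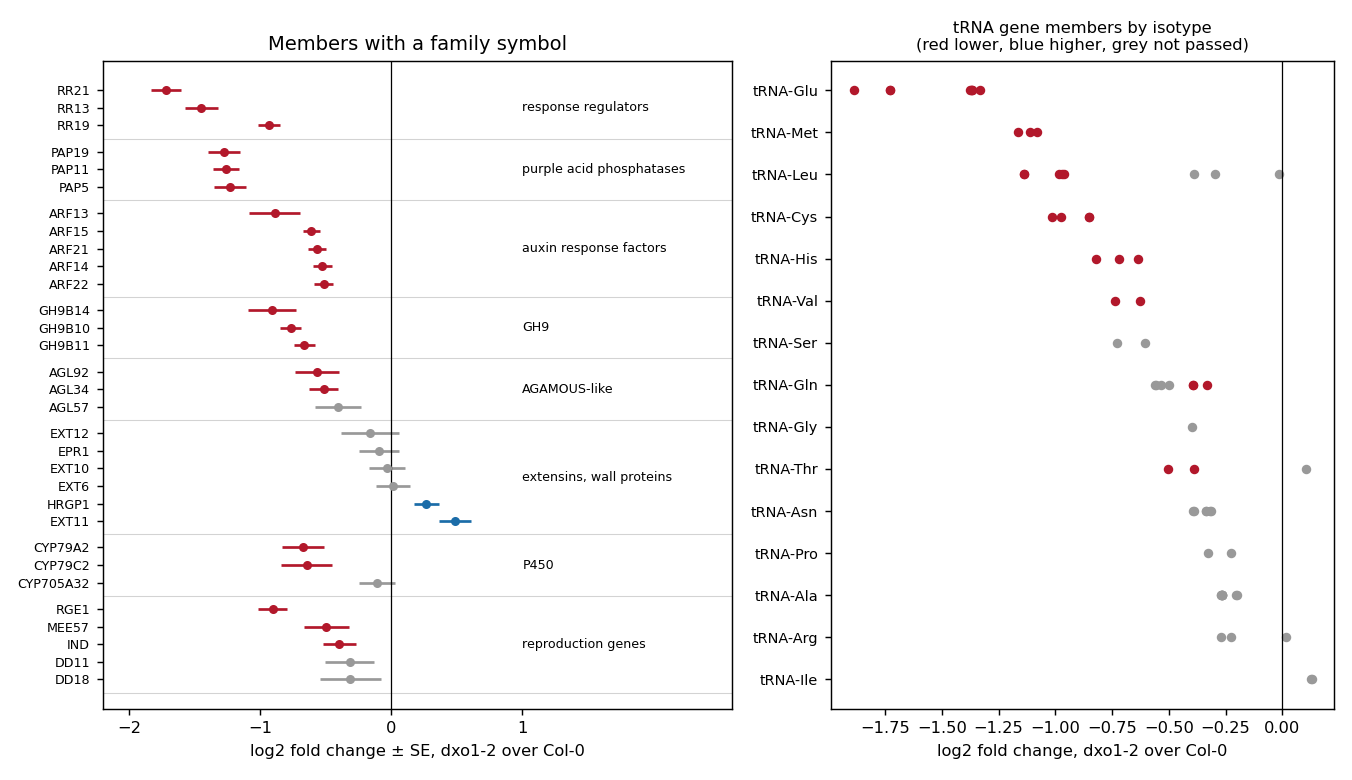
Log2 fold change of small RNA, dxo1-2 over Col-0 with TMM scaling, for members of named gene families (left, with SE bars) and for the tRNA genes by isotype (right); red is lower, blue higher and grey not past the test. The response regulators and purple acid phosphatases lie between -1.71 and -0.93, and all 8 tRNA-Glu points lie at or below -1.33.

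Reads that match several places bear on these loci. At 41 of the 592 loci, 30 of them tRNA genes, the counts of every small RNA library equalled those of another gene to within 1% or 1 count. The line of the tables for reads with several matches was 0 in all small RNA libraries, so such reads were either counted at each copy or placed by a rule not given in the sources used here. In RNA-seq that line held between 9.88% and 11.0% of all lines. Whether reads of these loci were among them was not tested. A further 29 loci overlap another gene in the RefSeq table, and since the strand setting is not given, counts of overlapping genes cannot be told apart. Without the 41 matching loci, 13 were higher and 305 lower of 551.

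Silent loci often stood side by side, and neighbours could differ. Of the 592, 213 had another silent arm locus at the next identifier ending in 0, and 91 lay in 24 runs of 3 or more. A lower locus was present in 22 of these 24 runs and a higher one in 3. Since 55.4% of the 592 loci were lower, most runs of 3 or more would hold at least 1, so the 22 do not set runs apart. In the run AT4G19270 to AT4G19320, for example, 6 adjacent loci had log2 fold changes from -0.78 to 0.28, with 2 lower and 1 higher. The run AT1G34690 to AT1G34740, made of 6 pseudogenes, ranged from -0.47 to -0.13 with 2 lower. Among loci averaging 200 counts or more, AT5G40110, AT4G18410 and AT5G03950 differed least between genotypes, with log2 fold changes of 0.0011, -0.0095 and -0.011.

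RNA-seq counts were found for all listed genes of the small RNA and silencing machinery in dxo1-2. Each of 29 genes, from RNA polymerase IV and V subunits to DCL, AGO and methyltransferase genes, had RNA-seq counts in every dxo1-2 library. NRPD1, the largest subunit of RNA polymerase IV, had 8.68 ± 1.31 CPM (SD, n = 3), and in the 3 libraries RDR2 had 7.19, 6.37 and 7.10 CPM, DCL3 had 6.60, 5.72 and 7.04 CPM and AGO4 had 40.2, 37.7 and 41.4 CPM. AGO9, known from reproductive tissue, was the lowest of them at 0.0941 CPM on average. That is below the flower genes AG (0.182 CPM) and PI (0.214 CPM) and above the flower gene AP3 (0.0187 CPM). Whether these levels differ from Col-0 was not tested. In small RNA 5 of the 29 genes had enough counts for the test. Of these 0 were higher and 1 lower, beside 26.8% higher and 23.0% lower over all genes tested, and 5 genes are too few to compare. The lower one was DCL4, a Dicer-like gene, with 5.37 ± 0.490 CPM in dxo1-2 and 9.96 ± 4.30 CPM in Col-0 (log2 fold change -0.89 ± 0.31, edgeR adjusted p = 0.0312). DCL4 did not pass with library totals, with all lines, or without Col-0 replicate 1 or any 1 dxo1-2 library.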

How the data were processed

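The authors deposited a table of raw counts for each library (37184 genes, then 5 summary lines). Bowtie, HISAT2, bedtools, HTSeq and DESeq2 and the build TAIR10 are named in the submitters' processing notes. Their roles and versions, the strandedness of counting and the handling of reads that match several places are not given in the sources used here. Libraries were grouped by their titles. Names, classes and overlaps came from a RefSeq table of TAIR10.1, which matched 36899 identifiers, and no coordinates or sequences are given.

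Small RNA counts were tested with edgeR 4.0.16 in R 4.3.3 (TMM scaling, default expression filter, quasi-likelihood test of genotype, two-sided, Benjamini-Hochberg adjustment at 0.05 over 11534 genes) and, as an alternative, with DESeq2 1.42.0. The fit was tested on simulated data. A prior count of 0.125 entered the log2 fold changes (dxo1-2 over Col-0). Their SE, the absolute value divided by the root of the F statistic, can fall below counting error at low counts. The summary lines stayed out of the fits, except where all lines set the library size.

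Named loci were those gained or lost, the 6 highest, the 3 with the smallest change, those with 3 counts or fewer in a genotype and those next to the minimum count. The other higher loci, the families and isotypes, the AT1G66 stretch, neighbours and runs were chosen after values were seen. The members and lists were chosen with earlier results of these data known.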

Additional observations from a re-analysis of the deposited data

How the results depend on the processing

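Counts of calls moved with the scaling and the filter. Library totals gave 4703 higher and 809 lower of all genes tested (silent arm loci 56 and 115). All lines gave 6828 and 502 (247 and 70), TMM factors of small nuclear RNA genes 1878 and 6244 (2 and 569), and a fit to genes averaging 50 counts or more 1435 and 1286 (24 and 201). The loci's median log2 fold change was 0.010 with library totals and 0.25 with all lines. RLE size factors, TMM without rRNA and tRNA genes, DESeq2, no count filter, and other limits for membership kept the counts of silent arm loci within 1.5 times.

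With 1 library left out, silent arm loci higher numbered 8 to 12 and lower 253 to 395, with 8 higher in each fit without a Col-0 library, and the median lay between -0.41 and -0.31. Over all genes, 2576 to 3645 were higher and 1974 to 3109 lower. With the replicate number as a block, 13 silent arm loci were higher and 340 lower, and 2913 and 2571 of all genes. The correlations of same-numbered libraries were 0.11, -0.097 and -0.037, and 1 of 3 dxo1-2 libraries correlated best with its own number, so the numbers were not taken to pair the samples.

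Signs turned at small changes. Under TMM factors of small nuclear RNA genes, the log2 fold change was -0.58 at AT4G28970, -0.11 at AT2G16030, -0.63 at AT5G40110, -0.0950 at AT5G00730, -0.15 at AT5G49080, -0.15 at AT1G44870, -0.23 at AT2G03920, -0.26 at AT2G25030, -0.26 at AT3G54580, -0.36 at AT4G19310, -0.37 at AT3G54590, -0.37 at AT2G02840 and -0.42 at AT5G37110. With library totals and with all lines it was 0.15 and 0.39 at AT4G09380, 0.14 and 0.38 at AT2G23720, 0.33 and 0.57 at AT4G18410, and 0.32 and 0.56 at AT5G03950. With all lines it was 0.010 at AT1G34410 (ARF21), 0.060 at AT1G34390 (ARF22), 0.051 at AT1G35540 (ARF14), 0.077 at AT4G13610 (MEE57) and 0.18 at AT4G00120 (IND). AT4G18410 had 0.0028 with RLE, 0.0028 with DESeq2, 0.019 with no filter and 0.14 with the mean count filter. AT5G03950 had 0.0014, 0.0011, 0.018 and 0.14 in the same 4 fits. AT5G40110 had -0.00389 with TMM without rRNA and tRNA genes.

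Without 1 library, AT5G40110 ranged from -0.093 to 0.074, AT4G18410 from -0.11 to 0.018, AT5G03950 from -0.12 to 0.071 and AT4G28970 from -0.0580 to 0.0989. The rise of AT3G19020 was 3.87 without Col-0 replicate 2, and the fall of AT1G73290 (scpl5) was -1.94 without Col-0 replicate 1. DEG6 ranged from -10.5 to -9.04 with its few dxo1-2 counts. The cause of these moves was not tested. Loci near 50 counts have wide counting error, and 3 libraries a genotype limit the precision.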
